A study of Homo sapiens with 24 samples.

Results

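The far 3′UTR peaks are sites of N6-methyladenosine (m6A) that lie deep inside the untranslated tail of an mRNA. Each deposited peak was laid on the longest protein-coding isoform of its gene, and it was kept when the middle of its exonic part lay more than 200 nt after the last base of the coding sequence (CDS). Of 228472 deposited peaks in 6 lists, 171945 could be placed on a coding isoform and 47014 of these were far 3′UTR peaks. They were 7477 of 28324 placed peaks in human pluripotent stem cells (hPSC), 7354 of 25180 in definitive endoderm (DE), 5607 of 23088 in pancreatic progenitors (PP) and 7048 of 24946 in human islet-like organoids (hILO). In the knockout experiment they numbered 10166 of 33061 in wild-type progenitors (WT PP) and 9362 of 37346 in progenitors without ALKBH5 (A5-KO PP).

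All 24 libraries came from the MEL1 human embryonic stem cell line, named MEL1 INSGFP/W in the methods of the study for the GFP reporter in an insulin allele, as 12 groups of 2 libraries, with an m6A immunoprecipitation (IP) group and an input group for each of the 6 cell populations. The 4 stages hPSC, DE, PP and hILO were made from enriched mRNA with a SYSY antibody. WT PP and A5-KO PP were made in another batch from total RNA, with a Millipore antibody, rRNA removed from the input and another library kit. The A5-KO cells carried a CRISPR-Cpf1 edit aimed at the first exon of ALKBH5, an enzyme that removes m6A, and differed from WT PP by that edit. One list was deposited for each population, called on its libraries together, so no spread between replicates could be had and no comparison below carries a test. Since batch, antibody and RNA type moved together, the 2 batches cannot be told apart from these differences in protocol. Intervals are 95% intervals over peaks, genes or sites, which are not replicates of a condition, and in these bulk samples fewer cells of a type and less RNA per cell cannot be told apart.

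The METTL3 and METTL14 complex writes m6A cotranscriptionally in a short sequence context, DRACH, which is A, G or T, then A or G, then the methylated A, then C, then A, C or T. GGACT is the form of this context best known for being methylated. m6A is densest around the stop codon and at the start of the 3′UTR, and it is removed by ALKBH5 and FTO and read by the YTH proteins. The 3′UTR beyond the stop codon holds the binding sites of miRNAs and of proteins that set the stability and translation of the mRNA. Its end is set by cleavage and polyadenylation, so a gene can end before the last base of its annotated isoform. Distances to the transcript end given here are to the annotated end.

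Several far peaks that were present at each of the 4 stages carry the GGACT form, and the bases around it are shown because the peaks of the 4 stages hold them, except that the HIP1 window lies outside the narrower HIP1 peak of hILO. The sequences are those of GENCODE 44 transcripts on GRCh38, written along the transcript with the motif in capitals. They lie in the last exon, in the 3′UTR, of ETF1 (chr5:138508057-138508077, minus strand), SOX4 (chr6:21596335-21596355, plus strand), HIP1 (chr7:75536743-75536763, minus strand), RAB40C (chr16:628934-628954, plus strand), FBXL12 (chr19:9810471-9810491, minus strand), TCTN3 (chr10:95663643-95663663, minus strand), AGO4 (chr1:35855831-35855851, plus strand) and TNRC6A (chr16:24825832-24825852, plus strand).
ETF1: gccactttGGACTaatttaaa
SOX4: gagcttccGGACTtgtctgca
HIP1: aaggtgctGGACTgttactga
RAB40C: gcaccagtGGACTcgccccat
FBXL12: cccaagaaGGACTgtctatgc
TCTN3: ttccctctGGACTgtagagga
AGO4: gagaaggaGGACTtgctggaa
TNRC6A: ccacacccGGACTggcctttt
The site nearest the stop codon is that of ETF1, 238 nt after the last CDS base, and the deepest are those of TNRC6A and AGO4, 2035 and 2236 nt after it.

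Sites in far peaks of regulators of cell identity are shown because several of these genes had a far peak at some stages only, with the site in the widest far peak of the list named. They lie in GATA6 (chr18:22201076-22201096, plus strand, DE), NKX6-1 (chr4:84492664-84492684, minus strand, PP), PDX1 (chr13:27925016-27925036, plus strand, PP), SALL4 (chr20:51783503-51783523, minus strand, hPSC) and LIN28B (chr6:105083181-105083201, plus strand, DE). The site of ALKBH5 (chr17:18209810-18209830, plus strand, hPSC) is added because ALKBH5 is the gene edited in the knockout.
GATA6: agaagccaGGACTaggacctg
NKX6-1: aaaaagatGGACTttcttcct
PDX1: ccaccttgGGACCtgtttaga
SALL4: tggtaactGGACAcgggtaaa
LIN28B: atctggagGGACTgaagcact
ALKBH5: tcaagtcgGGACTgcataatt
PDX1 and SALL4 carry GGAC followed by another base than T in these windows, and the other windows carry GGACT. In the wider SALL4 peaks of WT PP and A5-KO PP the window nearest the middle was another one, with GGACT 932 nt after the last CDS base.

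The deposited read counts, log2 enrichments and p-values could be used for only a part of each list. Peaks are numbered along the gene identifiers, and neighbouring peaks of a gene should have like input counts, since they share its expression. In blocks of 500 peak numbers, the squared difference of log2 input counts between neighbours was compared for neighbours on the same gene and on different genes, with the values moved by up to 60 rows. The values matched the coordinates best without any move in 30 of 73 blocks of hPSC, 26 of 66 of DE, 11 of 61 of PP, 10 of 66 of hILO, 10 of 96 of WT PP and 12 of 116 of A5-KO PP. They matched best when taken from 1 to 20 rows earlier in 37, 31, 36, 36, 35 and 51 blocks. In the other 6, 9, 14, 20, 51 and 53 blocks another move matched best or no move could be scored. A measure that was not used to choose the blocks showed the same division. Within the longest run of matching blocks the Spearman correlation across peaks of the −log10 p with peak width was between 0.65 (PP) and 0.79 (hILO), and outside it was between 0.020 (hILO) and 0.11 (hPSC).

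Coordinates were not affected in this way. The share of far peaks that held a GGACT was 31.7% inside the run and 32.3% outside it in hPSC, and 31.8% and 30.7% in WT PP. Counts, log2 enrichments and p-values are therefore given only for peaks in that run. It held 2735 of the 7477 far peaks of hPSC, 2496 of 7354 of DE, 579 of 5607 of PP, 570 of 7048 of hILO, 607 of 10166 of WT PP and 703 of 9362 of A5-KO PP. All results on position, sharing and sequence use every far peak. Summed over all peaks of a list, the deposited input counts ranged from 6987612 (PP) to 28463998 (hILO) and the IP counts from 30723097 (DE) to 79822815 (hPSC).

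Far 3′UTR peaks made up a smaller share of the peaks in PP than in the stages before and after it. The share of placed peaks was 26.4% (25.9 to 26.9) for hPSC, 29.2% (28.6 to 29.8) for DE, 24.3% (23.7 to 24.8) for PP and 28.3% (27.7 to 28.8) for hILO. It differed by 2.81 percentage points in DE against hPSC (2.05 to 3.57), -4.92 points in PP against DE (-5.71 to -4.13) and 3.97 points in hILO against PP (3.18 to 4.75). In the knockout experiment it was 30.7% (30.3 to 31.2) for WT PP and 25.1% (24.6 to 25.5) for A5-KO PP, a difference of -5.68 points (-6.34 to -5.02). Among peaks with usable values the shares were 29.8% and 24.0%, and they lay closer with a further limit, at 24.8% and 21.1% with at least 50 input reads and at 28.4% and 26.8% with p below 1e-10. They lay farthest apart where no input read was counted, at 44.4% and 22.5%. A5-KO PP had fewer far peaks and more CDS peaks than WT PP, with 18669 CDS peaks against 14225. The limit of 200 nt cut through a dense region. From 151 to 200 nt after the last CDS base there were 772 peaks in hPSC, and from 201 to 250 nt there were 635. In A5-KO PP the same windows held 894 and 784 peaks.

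Far peaks were found on a large part of the methylated genes. Among genes with any peak and a 3′UTR over 200 nt, those with a far peak numbered 4537 of 10109 (44.9%) for hPSC, 4620 of 9561 (48.3%) for DE, 3619 of 8687 (41.7%) for PP, 4588 of 9664 (47.5%) for hILO, 5708 of 10760 (53.0%) for WT PP and 5414 of 11866 (45.6%) for A5-KO PP. Over all lists 8426 genes had a far peak at least in 1 list and 1880 had one in all 6. Most of these genes had 1 far peak, from 58.0% of them in WT PP to 67.2% in PP. Genes with 3 or more made up between 12.3% in hILO and 18.6% in WT PP.

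Genes with a far peak had longer 3′UTRs, which the rule favours because a longer UTR has more room. Their median annotated 3′UTR ranged from 2114 nt in hPSC to 2281 nt in PP, against 1573 nt at most among methylated genes without a far peak. The share of genes with a far peak was higher in longer UTR classes. In hPSC it was 18.1% at 201 to 500 nt, 40.8% at 501 to 1000 nt, 46.3% at 1001 to 2000 nt, 51.1% at 2001 to 4000 nt and 57.7% over 4000 nt. In WT PP it went from 18.3% to 67.7% over the same classes. The number of far peaks per kb went the other way, from 1.24 per kb of far UTR in the shortest class to 0.205 in the longest in hPSC, and from 1.21 to 0.167 in PP. A long UTR was thus more often methylated in its far part, while its bases were less densely covered.

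**Figure D1:**
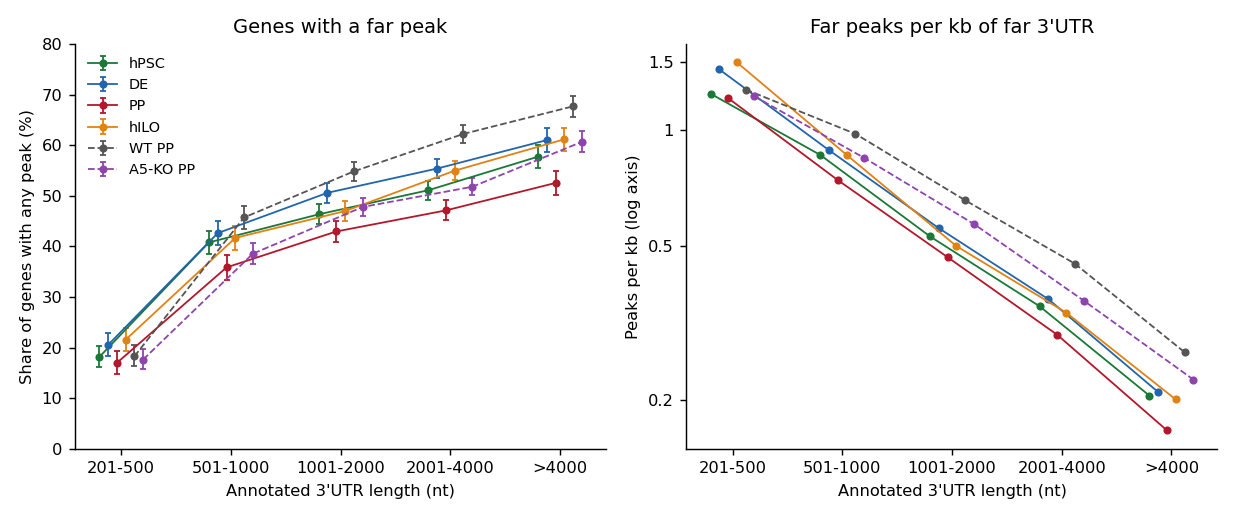
Genes with a far 3′UTR peak by annotated 3′UTR length. Left, share of genes with any peak that had a far peak, in percent with Wilson 95% intervals. Right, far peaks per kb of 3′UTR beyond 200 nt, on a log axis. Each line is a list, dashed for the knockout experiment. The share was higher in longer classes in each list, from 18.1% to 57.7% in hPSC, and the density was lower in longer classes, 0.205 per kb against 1.24 in hPSC.

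Along the UTR the far peaks thinned out with distance from the stop codon. The first 200 nt of the UTR were covered by peaks over 38.8% of their bases in hPSC and 33.2% in PP, with 47.5% in WT PP. At 201 to 400 nt the covered share was 26.4% for hPSC, 26.9% for DE, 22.1% for PP, 26.7% for hILO, 36.8% for WT PP and 29.3% for A5-KO PP. At 801 to 1000 nt it was 9.24% in hPSC and 6.76% in PP, and at 4001 to 6000 nt it was 3.46% and 3.20%. The median far peak lay 817 nt after the last CDS base for hPSC, 824 nt for DE, 768 nt for PP, 852 nt for hILO, 913 nt in WT PP and 838 nt in A5-KO PP. Its median distance to the annotated transcript end was between 1158 nt (DE) and 1305 nt (PP).

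The annotated transcript end was not a second maximum comparable with the stop codon. In UTRs over 1000 nt the covered share of the bases at 201 to 400 nt was 4.23 times that of the last 200 nt for hPSC, 3.42 times for DE, 4.36 times for PP, 3.34 times for hILO, 4.30 times in WT PP and 4.14 times in A5-KO PP. DE and hILO, with the lowest ratios, also had the largest share of far peaks within 200 nt of the end, 15.3% and 16.8%, against 11.4% in WT PP and 12.8% in hPSC. Far peaks were nearly all in the last exon, between 99.7% and 99.8% of them by list. Those more than 2000 nt after the last CDS base made up between 20.9% in PP and 23.6% in WT PP.

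**Figure D2:**
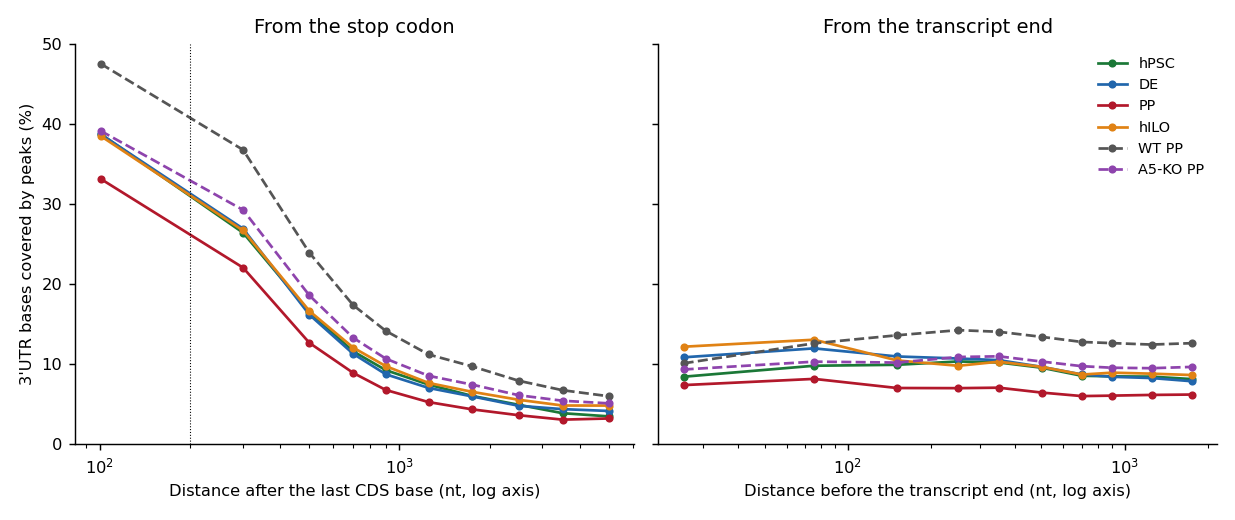
Share of 3′UTR bases covered by peaks, in percent, against the distance after the last CDS base (left, the dotted line marks 200 nt) and the distance before the annotated transcript end (right), both on log axes. Each line is a list, dashed for the knockout experiment. Coverage at 201 to 400 nt lay between 22.1% (PP) and 36.8% (WT PP) and at 4001 to 6000 nt between 3.20% and 5.98%, and no rise of that size was seen towards the transcript end.

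The genes with the most far peaks differed widely in how much of the far UTR they covered. TBC1D16, a GTPase-activating protein for Rab GTPases, had 14 far peaks for hPSC, 11 for DE, 9 for PP, 11 for hILO, 11 for WT PP and 11 for A5-KO PP in a UTR of 8516 nt. They covered 33.3%, 28.5%, 21.2%, 25.4%, 43.8% and 32.7% of its far part. TUG1, known as a long noncoding RNA and annotated here with a coding isoform, was covered over 54.4% for hPSC, 54.1% for DE, 47.0% for PP, 70.1% for hILO, 63.7% for WT PP and 70.4% for A5-KO PP. The coverage of CFLAR, an inhibitor of caspase activation by death receptors, was 1.60% in hPSC and 23.8% in DE, with 2 and 10 far peaks. GDF11, a TGF-beta family ligand, had 13 far peaks in hPSC and 8 in PP. ANKRD33B and TRIM56 were sparse in PP alone among the stages, with 3 and 1 far peaks in PP and between 7 and 11 in the other stages. FBXO22, ZKSCAN1, POLR1A and MAPKAPK5 completed the 10 genes with the most far peaks over the 4 stages, and had between 6 and 11 at each stage.

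The farthest peaks, taken once per gene and placed by their middle, lay mostly near the end of very long annotated UTRs. The farthest of all was in SMAD2, a transducer of TGF-beta and activin signals, in DE, 32708 nt after the last CDS base and 162 nt before the end of a UTR of 32870 nt. GRIN2B, a glutamate receptor subunit, had a peak in A5-KO PP at 25404 nt, 42 nt before the annotated end. ZBTB20, a zinc finger repressor, had one in A5-KO PP at 22743 nt, 1762 nt before the end, assigned to 3 gene identifiers. The peaks of PCDH9 and SH3TC2 in A5-KO PP, 83 and 92 nt wide, had their middles 41 and 45 nt before the annotated end, and their genomic spans crossed introns of the gene.

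The sequence of far peaks was richer in the m6A context than the rest of the same UTRs. DRACH sites numbered 22.8 per kb inside far peaks of hPSC and 17.9 per kb in the parts of the same UTRs outside peaks, a ratio of 1.27. The ratio was 1.30 in DE, 1.28 in PP, 1.25 in hILO, 1.22 for WT PP and 1.24 for A5-KO PP. On the opposite strand, which the antibody cannot have read on these transcripts, the ratio was between 0.83 and 0.88. GGACT stood out more, with ratios of 2.17, 2.23, 1.93, 1.85, 1.96 and 1.97 in the order hPSC, DE, PP, hILO, WT PP and A5-KO PP, and between 0.89 and 1.02 on the opposite strand. The share of far peaks that held at least 1 GGACT was 32.1% in hPSC and 26.6% in PP, among stop codon peaks it was 32.9% and 29.9%, and among CDS peaks it was 24.5% and 19.9%.

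A GGACT site was less often inside a peak the deeper it lay in the UTR. In genes with any peak, 49.0% of GGACT sites within 200 nt of the stop codon were covered for hPSC, against 17.6% of those in the far UTR and 21.0% of those in the rest of the CDS. At 201 to 400 nt the covered share was 44.1% for hPSC and 52.8% for WT PP. Beyond 4000 nt it was 5.65% and 9.62%. In PP the covered share of far GGACT sites was the lowest of the lists, 12.7%, against 17.8% for DE and 16.2% for hILO. PP was also the lowest within 200 nt of the stop codon (40.5%) and in the CDS (16.9%), so this was not particular to far sites.

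Elements read by RNA-binding proteins and miRNAs were mostly not denser in far peaks than outside them. The AU-rich pentamer ATTTA, bound by regulators of mRNA decay, had ratios between 0.66 (hPSC) and 0.86 (PP), and the Pumilio element TGTANATA between 0.58 (hPSC) and 0.88 (PP), both on the transcript strand. On the opposite strand the ratios were alike, between 0.64 and 0.83 for ATTTA and between 0.64 and 0.99 for TGTANATA, so the low values were not particular to the elements on the mRNA. The polyadenylation signal AATAAA had ratios above 1 in DE, PP and hILO (1.15, 1.07 and 1.19) and below 1 in hPSC, WT PP and A5-KO PP (0.89, 0.80 and 0.89), and between 0.62 and 0.80 on the opposite strand. The variant hexamer ATTAAA had ratios below 1 in each list, from 0.65 (hPSC) to 0.91 (hILO). For miRNAs the 7-base match of the seed (bases 2 to 8) was counted. Their mature sequences, from RefSeq with the seed in capitals, are shown because the sites counted are the reverse complement of these capitals.
hsa-miR-302a-3p: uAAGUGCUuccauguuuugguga
hsa-let-7a-5p: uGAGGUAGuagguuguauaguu
hsa-miR-7-5p: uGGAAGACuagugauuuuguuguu
hsa-miR-200b-3p: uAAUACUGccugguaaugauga
hsa-miR-375-3p: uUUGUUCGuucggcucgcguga
Sites of miR-302a, a miRNA of pluripotent cells, had ratios from 0.83 (DE) to 0.99 (A5-KO PP), and sites of let-7a, a miRNA of differentiated cells, from 0.96 to 1.11. Sites of miR-200b, a miRNA of epithelial cells, had ratios from 0.57 in hPSC to 0.79 in A5-KO PP. Sites of miR-7, a miRNA of endocrine cells, had ratios from 0.92 to 1.12, and from 1.75 to 1.96 on the opposite strand. Sites of the islet miRNA miR-375 had ratios from 1.45 (hPSC) to 2.43 (hILO), with only 12 to 24 such sites inside far peaks of a list. The opposite strand gave from 1.03 to 2.27 for miR-375, from 0.50 to 0.61 for miR-302a, from 0.88 to 1.15 for let-7a and from 0.82 to 1.03 for miR-200b.

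Far peaks were found again in the stage before less often than peaks at the stop codon. A peak was counted as present in another list when over 50% of its exonic bases were covered by peaks there. Of the far peaks of DE, 64.1% (63.0 to 65.2) were covered in hPSC, against 74.9% of the peaks within 200 nt of the stop codon, a difference of -10.8 points (-12.4 to -9.22). Of those of PP, 65.9% (64.6 to 67.1) were covered in DE, against 75.0% (difference -9.14 points, -10.9 to -7.37). Of those of hILO, 43.4% (42.3 to 44.6) were covered in PP, against 53.8% (difference -10.4 points, -12.1 to -8.59). Against CDS peaks the order was not the same at each step. The far share minus the CDS share was -5.07 points at the step to DE, 12.1 points at the step to PP and -3.16 points at the step to hILO. With usable values and at least 50 input reads, the far, stop codon and CDS shares were 73.0%, 80.4% and 73.6% at the step to DE. At the step to PP they were 75.1% (70.6 to 79.2), 79.5% (75.3 to 83.1) and 62.1%, so the far and stop codon intervals overlapped. At the step to hILO they were 44.5%, 59.5% and 50.2%. Counted forward over all placed peaks, 59.0% of hPSC far peaks were covered in DE. For DE far peaks in PP it was 43.7%, and for PP far peaks in hILO 69.2%. The forward stop codon shares were 68.8%, 56.1% and 76.4%, and the CDS shares 51.0%, 52.3% and 59.0%. The far share at the step to hILO was thus the highest counted forward and the lowest counted back. PP had the fewest far peaks of the stages, and the part of list size was not tested.

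The deeper a far peak lay, the less often it was found in the stage before. For DE peaks the share covered in hPSC went from 72.6% at 201 to 400 nt to 47.7% beyond 4000 nt, and for hILO peaks the share covered in PP went from 54.5% to 34.1%. The PP peaks departed from this beyond 4000 nt, where 63.5% were covered in DE against 60.4% at 2001 to 4000 nt. Most far peaks that were not covered in the stage before lay on genes already methylated. Of 2639 such peaks in DE, 55.8% lay on a gene with another far peak in hPSC, 26.6% on a gene with peaks elsewhere only and 17.6% on a gene without a placed peak. For 1912 in PP the shares were 59.4%, 18.6% and 22.0%, and for 3988 in hILO they were 49.6%, 25.1% and 25.4%.

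**Figure D3:**
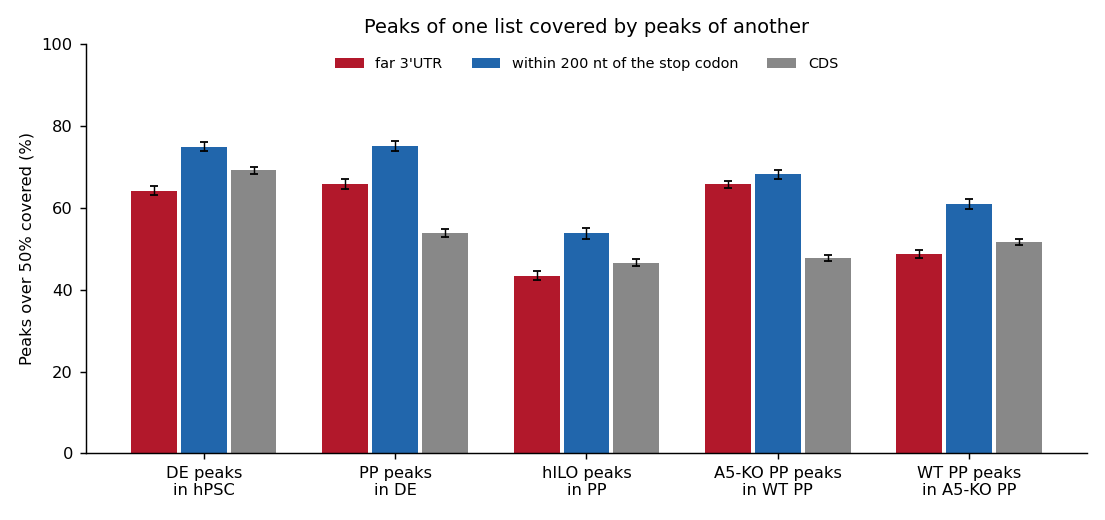
Share of peaks of one list with over 50% of their exonic bases covered by peaks of another list, in percent with Wilson 95% intervals, for far 3′UTR peaks, peaks within 200 nt of the stop codon and CDS peaks. Far peaks of DE were covered in hPSC at 64.1% and stop codon peaks at 74.9%, and the far bar was the lower of these 2 in each of the 5 comparisons.

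A core of far peaks was present at each stage. Of the far peaks of hPSC 2133 (28.5%), on 1721 genes, were covered in DE, PP and hILO, and of those of PP 2562 (45.7%) were covered in the other stages. Among stop codon peaks these shares were 40.4% and 57.8%. Far peaks that shared no base with any peak of the other 3 stages made up 19.8% of those of hPSC (1479), 15.2% of those of DE (1119), 11.0% of those of PP (615) and 22.2% of those of hILO (1564). Among stop codon peaks these shares were 13.3%, 8.71%, 6.50% and 14.6%, and among CDS peaks 21.8%, 12.1%, 18.6% and 22.9%, so they were not particular to far peaks. The stage-restricted peaks lay deeper and were narrower. In hPSC their median distance was 1017 nt and their median width 100 nt, against 668 nt and 275 nt for those present at all stages, and in DE 1275 nt and 75 nt against 656.5 nt and 275 nt. Among the far peaks with usable values, the stage-restricted ones also had fewer input reads, with medians of 25, 39, 30 and 228 in the order hPSC, DE, PP and hILO against 125.5, 245, 179 and 355, and the ratio between them was smallest in hILO. The part of read depth in this difference was not tested.

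The 10 far peaks of all 4 stages with the highest lowest enrichment were chosen by these values, which are given as a description. In ETF1, which encodes the translation release factor eRF1, the peak spanned 300 nt in hPSC and DE, 250 nt in PP and 375 nt in hILO (chr5:138507945-138508244 in hPSC and DE). Its log2 enrichment was 2.35 for hPSC, 2.32 for DE, 2.43 for PP and 2.18 for hILO, with 637, 671, 616 and 1084 input reads. These 4 values lay within 0.24 of each other, and the counting error of each, from its IP and input reads, was between 0.049 and 0.065. SOX4, a transcription factor of progenitor cells, had a broad far peak of 1400 nt for hPSC, 1375 nt for DE, 1425 nt for PP and 1450 nt for hILO. Its log2 enrichment was 2.62 for hPSC, 2.32 for DE, 2.27 for PP and 2.17 for hILO, each with a counting error of 0.029 or less.

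In HIP1, an endocytic adaptor, the log2 enrichment was 2.69 for hPSC, 2.49 for DE, 2.21 for PP and 2.32 for hILO. In RCL1, which takes part in ribosomal RNA processing, it was 2.87 for hPSC, 2.29 for DE, 2.36 for PP and 2.22 for hILO. CCNT1, the cyclin of the elongation factor P-TEFb, had 2.57 for hPSC, 2.41 for DE, 2.18 for PP and 2.48 for hILO. FBXL12, an F-box protein, had 2.84, 2.40, 2.15 and 2.30 in the same order. RAB40C, whose peak was assigned to 2 gene identifiers, had 2.90, 2.38, 2.17 and 2.24. TTPAL had 2.49, 2.14, 2.18 and 2.36, and TCTN3, a protein of the ciliary transition zone, 2.53, 2.60, 2.27 and 2.13. The read-through gene TLCD4-RWDD3, with a peak assigned to 3 identifiers, had 2.85, 2.70, 2.75 and 2.55. The values of RAB40C and TLCD4-RWDD3 are uncertain as to the gene. The hPSC value was the highest in 8 of these 10 peaks, with ETF1 and TCTN3 as the exceptions. The values of a peak were not always taken over the same bases. The RCL1 peak was 775 nt wide in hPSC and 350, 375 and 325 nt in DE, PP and hILO. The HIP1 peak was 650 nt wide in hPSC and 225 nt in hILO. Over all far peaks with usable values the hPSC median was also the highest of the stages, so the order was not particular to these peaks.

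The far peaks that were restricted to a stage and strongest there included FGF2 in hPSC, the growth factor used to keep these cells undifferentiated. That peak lay 2716 nt after the last CDS base and had a log2 enrichment of 2.42 with a counting error of 0.11, from 189 input and 2630 IP reads. COX6B2 and CDHR1 were the others in hPSC, at 2.44 and 1.88. In DE they were ODF2L (2.79), GID4 (2.31) and LOXL4 (2.29), and in PP USP22 (1.47), KIAA2013 (1.45) and MTR (1.40), each of the PP peaks being 50 nt wide, the lowest values among the stages. In hILO they were RPAP2 (2.76) and a pair of peaks of the phosphodiesterase PDE11A, 326 and 2614 nt after its last CDS base (2.58 and 2.48). The COX6B2 and PDE11A peaks were assigned to more than 1 gene identifier.

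Over all far peaks with usable values the median enrichment at the 4 stages lay between those of the CDS and the stop codon, an order that did not hold throughout. With at least 50 input reads the far median of PP was 1.42 and the CDS median 1.43, and among peaks of 40 to 45% GC the far median was below the CDS in DE (1.60 and 1.61), level with the stop codon in PP to 2 decimals and above the stop codon in hILO (1.49 and 1.48). The median log2 enrichment of far peaks was 1.77 (1.74 to 1.80) for hPSC, 1.69 (1.66 to 1.71) for DE, 1.48 (1.44 to 1.54) for PP and 1.48 (1.42 to 1.53) for hILO. At the stop codon it was 1.81, 1.76, 1.59 and 1.51, and in the CDS 1.66, 1.63, 1.44 and 1.38. The intervals of far and stop codon peaks overlapped in all stages but DE, and those of far and CDS peaks in PP and hILO. In the other batch it was 3.56 (3.36 to 3.80) for WT PP and 4.18 (3.92 to 4.33) for A5-KO PP. The counts of that batch are scaled otherwise, and the medians are not compared across batches. Compared inside the same gene, among peaks with at least 50 input reads, far peaks minus stop codon peaks gave a median of -0.093 in hPSC (-0.149 to -0.020, 399 genes). The intervals of the other lists held 0, with medians of -0.041 (DE), -0.028 (PP), -0.015 (hILO), -0.051 (WT PP) and 0.22 (A5-KO PP, -0.19 to 0.58). Far peaks minus CDS peaks gave 0.15 for hPSC (0.078 to 0.18, 454 genes), 0.071 for DE (0.0084 to 0.12), 0.15 for PP (0.063 to 0.23), 0.14 for hILO (0.066 to 0.20), 0.80 for WT PP (0.36 to 1.15) and 1.12 for A5-KO PP (0.50 to 1.41). Taken from the plain log2 ratio of IP to input reads, the medians against the CDS were -0.13 (DE), -0.090 (PP) and -0.0049 (hILO), so their direction was not kept there. Against the stop codon the plain-ratio medians were -0.10 (hPSC), -0.19 (DE), -0.39 (PP), -0.12 (hILO), -0.22 (WT PP) and -0.035 (A5-KO PP). The direction of A5-KO PP was thus not kept either.

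Where a far peak was shared between 2 lists its enrichment seldom differed much. Pairs were taken with at least 50 input reads and usable values in both lists, and a difference of at least 1 in log2 enrichment was counted. From hPSC to DE 2 of 1110 far pairs were higher and 6 were lower by that much, where 0.159% and 0.501% of all placed pairs were. From DE to PP 0 of 260 were higher and 1 was lower, where 0% and 0.835% of all pairs were. From PP to hILO 0 of 196 were higher and 0 were lower, where 0.106% and 0.849% of all pairs were. The far counts were thus near the background at each step. The median difference was -0.13 (-0.15 to -0.11) from hPSC to DE, -0.23 (-0.28 to -0.19) from DE to PP and 0.056 (-0.00084 to 0.12) from PP to hILO, beside -0.12, -0.20 and -0.0041 over all pairs.

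Between WT PP and A5-KO PP the shared far peaks were spread more widely. Of 228 far pairs 15 (6.58%) were higher and 31 (13.6%) were lower in A5-KO PP by at least 1, where 5.86% and 11.2% of all placed pairs were. The median difference, A5-KO PP minus WT PP, was -0.11 (-0.18 to 0.0070) for far pairs and -0.11 over all pairs. In 19 of the 31 lower pairs the WT PP peak was more than 2 times as wide as the A5-KO PP peak, so the 2 values were not taken over the same bases. This was so in 0 of the 15 higher pairs. Among the 181 pairs whose widths were within 2 times of each other 15 were higher and 12 were lower, and the median difference was 0.0026 (-0.11 to 0.20). That limit on width removed lower pairs and no higher ones, so these values are a description only.

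The 5 pairs with the largest differences downward were of this kind. The A5-KO PP peak in RPS6KB1, the ribosomal S6 kinase, was 75 nt wide with a log2 enrichment of 0.75, and the WT PP peak over it was 3957 nt wide with 5.00. DSE, TENT5A, PODXL2 and OSBP had A5-KO PP peaks of 50 to 75 nt inside WT PP peaks of 550 to 9577 nt. The largest differences upward were between peaks whose widths were within 2 times of each other. They were in SPIN1, a reader of histone methylation (1.86 for WT PP and 3.72 for A5-KO PP), GATC (5.75 and 7.24), HAND1, a transcription factor of mesoderm (3.81 and 5.14), MLX (3.60 and 4.90) and FOXRED1 (3.43 and 4.72). The counting error of these 5 differences was between 0.16 and 0.27. The peaks in RPS6KB1, DSE and GATC were assigned to more than 1 gene identifier.

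**Figure D4:**
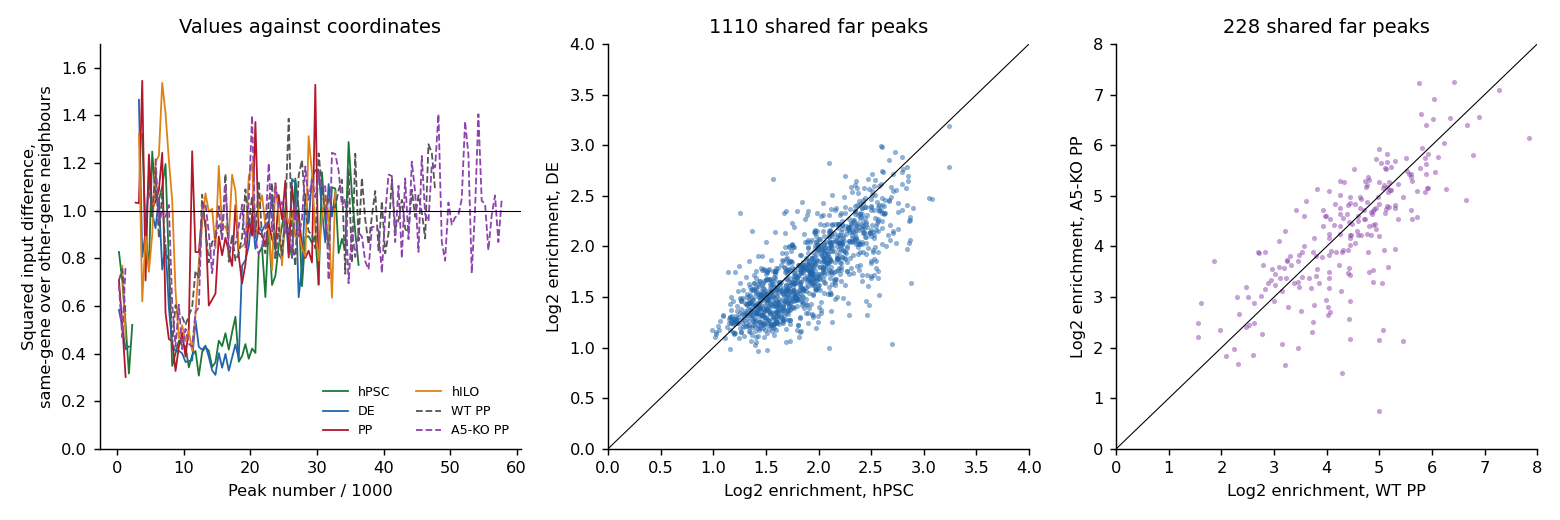
Which deposited values could be used, and the shared far peaks among them. Left, ratio of the mean squared difference of log2 input counts between neighbouring peaks of the same gene and of different genes, by peak number divided by 1000, where low values mark blocks whose values match their coordinates. Middle and right, log2 enrichment of shared far peaks with usable values and at least 50 input reads in both lists, 1 point a peak, with the line of equal values, for hPSC against DE (1110 pairs) and WT PP against A5-KO PP (228 pairs). The hPSC and DE points lie close to the line and the knockout points are spread more widely.

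The lists of the knockout experiment shared far peaks unequally. Of the A5-KO PP far peaks 65.7% were covered in WT PP, and of the WT PP far peaks 48.8% were covered in A5-KO PP. The far share minus that of stop codon peaks was -12.2 points in WT PP (-13.8 to -10.6) and -2.45 points in A5-KO PP (-3.93 to -0.958). The far share minus that of CDS peaks was -2.86 points in WT PP (-4.13 to -1.59) and 17.9 points in A5-KO PP (16.7 to 19.1). With usable values and at least 50 input reads 87.1% of far and 87.1% of stop codon peaks of A5-KO PP were covered, and 69.4% and 78.5% of those of WT PP. Far peaks that were not covered in the other list numbered 3211 in A5-KO PP and 5209 in WT PP and lay deeper than the shared ones, at a median of 956 nt against 765 nt and of 1057 nt against 746 nt. Among those with usable values, the median input was 18 reads for the A5-KO PP peaks not covered in WT PP and 78 for the shared ones. In WT PP these were 29.5 and 161. No input read at all lay under 20.7% of the 188 A5-KO PP far peaks with usable values that were not covered in WT PP, against 11.7% of the shared ones, and under 27.3% of the stop codon and 28.4% of the CDS peaks not covered there. The PP list of the first batch was covered in WT PP at 69.2% of its far peaks, and 19.7% of the WT PP far peaks were covered in PP.

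Among regulators of the stages, NANOG and POU5F1 had far peaks in hPSC and DE, PDX1 and NKX6-1 in PP, hILO and both lists of the knockout experiment, and NEUROD1, PAX6 and PCSK2 in hILO. Peaks of any kind were on 9, 9, 6 and 4 of 10 pluripotency genes in the order hPSC, DE, PP and hILO, on 3, 10, 6 and 6 of 10 definitive endoderm genes, on 6, 6, 10 and 9 of 12 pancreatic progenitor genes and on 7, 3, 7 and 18 of 22 islet endocrine genes. Of 19702 annotated coding genes 10797, 10172, 9192 and 10307 had a placed peak. Of the pluripotency genes with a peak, 5 of 9, 6 of 9, 3 of 6 and 2 of 4 had a far peak in hPSC, DE, PP and hILO. Over all methylated genes the shares were 44.9%, 48.3%, 41.7% and 47.5%, and the list is too small to set against them. NANOG, a core pluripotency factor with a UTR of 4051 nt, had a far peak at 485 to 609 nt after the last CDS base in hPSC and at 560 to 684 nt in DE, and none in the 4 other lists. POU5F1, which encodes OCT4, had one in hPSC and DE in a UTR of only 250 nt. LIN28A, an RNA-binding repressor of let-7 maturation, kept a peak at about the same place at each stage, centred 2121, 2046, 2033 and 2046 nt after the last CDS base, and had none in WT PP and A5-KO PP. Its log2 enrichment was 1.41 in hPSC and 1.14 in DE.

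Of the definitive endoderm genes 3 of 10 with a peak had a far peak in DE, where the share over all methylated genes was 48.3%. GATA6, an endoderm transcription factor, had a far peak at 32 to 706 nt in DE, 32 to 681 nt in hILO, -68 to 681 nt in WT PP and 32 to 656 nt in A5-KO PP, and none in hPSC and PP. EOMES, a T-box factor of early endoderm, had one in DE alone, at 697 to 746 nt. Of the pancreatic progenitor genes 4 of 10 with a peak had one in PP, 6 of 12 for WT PP and 8 of 12 for A5-KO PP. Over all methylated genes the shares were 41.7%, 53.0% and 45.6%. The endoderm and progenitor lists are too small to set against these shares. PDX1, the homeodomain factor of pancreas development, had 3 far peaks in PP, at 10 to 509 nt, 710 to 1034 nt and 1160 to 1384 nt, and 1 in hILO, at 10 to 1059 nt. It had 1 for WT PP and 2 for A5-KO PP, of which the pair at 1085 to 1434 nt and 1110 to 1409 nt lay over the same bases. NKX6-1, a factor of beta-cell progenitors, was covered at 403 to 952 nt in PP, 378 to 952 nt in hILO and 53 to 927 nt in WT PP. The A5-KO PP list held separate NKX6-1 peaks at 128 to 302 nt, 428 to 527 nt and 553 to 727 nt. Neither gene had a far peak in hPSC or DE. MNX1, a motor neuron and pancreas homeobox factor, had a far peak in DE, PP and hILO with log2 enrichments of 1.96, 1.77 and 1.57 and input reads of 115, 2202 and 2578.

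Of the islet endocrine genes 7 of 18 with a peak had a far peak in hILO. The share over all methylated genes was 47.5% there, and the list is too small to set against it. Those of NEUROD1 at 667 to 966 nt, PAX6 at 56 to 355 nt and PCSK2, a convertase that processes proinsulin, at 1305 to 1629 nt were in hILO alone. INSM1, an endocrine zinc finger factor, had its far peak at 154 to 278 nt in PP and at 529 to 803 nt in hILO, which share no base.

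**Figure D5:**
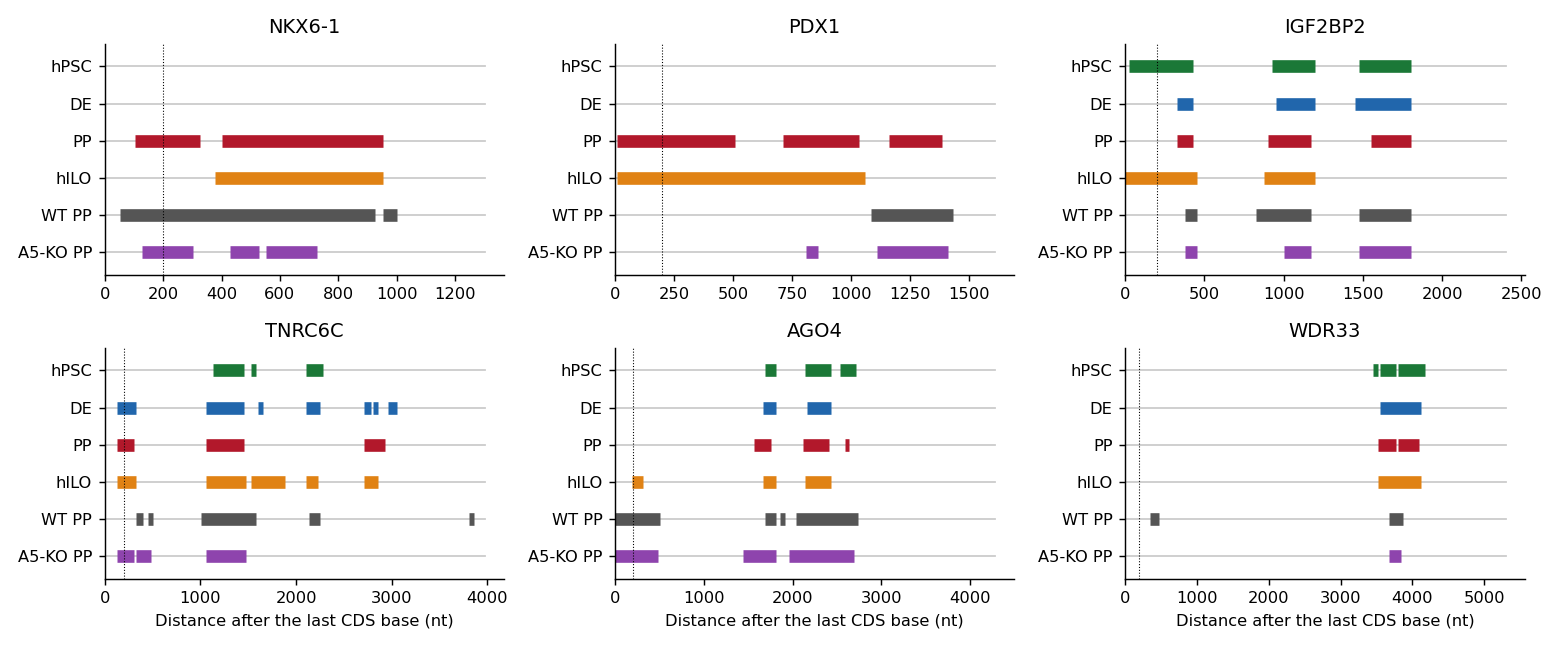
Far 3′UTR peaks of 6 genes from the fixed lists in the 6 deposited lists. The horizontal axis is the distance after the last CDS base in nt, the grey line is the annotated 3′UTR, coloured bars are far peaks and the dotted line marks 200 nt. NKX6-1 and PDX1 had no far peak in hPSC and DE. AGO4 had a peak over bases 2163 to 2412 nt in each list, and TNRC6C had between 3 and 7 far peaks.

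Of the genes of the m6A machinery with a peak, those with a far peak numbered 8 of 16 for hPSC, 7 of 16 for DE, 7 of 17 for PP, 9 of 16 for hILO, 12 of 16 for WT PP and 11 of 17 for A5-KO PP. Over all methylated genes the shares were 44.9%, 48.3%, 41.7%, 47.5%, 53.0% and 45.6% in the same order, so the counts at the stages were near the background. ALKBH5 had 1 far peak in each list, centred between 1408 and 1483 nt after the last CDS base in a UTR of 1558 nt. The edit was aimed at the first exon, so this peak does not check the knockout. FTO, the other demethylase, had far peaks in WT PP and A5-KO PP and in none of the stages. METTL14, a core writer subunit, was marked between 494 and 1043 nt in each list, with 2 peaks in hPSC and PP and 1 in each other list. YTHDF1, a cytoplasmic reader, had a far peak that ran to the annotated end of its UTR of 1279 nt in each list, with log2 enrichments of 1.41 in hPSC and 1.44 in DE. IGF2BP2, an RNA-binding reader, had 3 far peaks in each list except hILO, where it had 2.

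Of the genes that cut and polyadenylate mRNAs 6 of 13 with a peak had a far peak in hPSC and in A5-KO PP, and 3 or 4 of 10 to 15 in the other lists. WDR33, which recognises the polyadenylation signal, had far peaks between 3447 and 4171 nt for hPSC, where 3 peaks, from the nearest to the stop codon to the farthest, had log2 enrichments of 1.72, 1.96 and 2.74. In DE a single peak at 3547 to 4121 nt had 2.04. Of the genes for proteins that bind 3′UTRs 9 of 16 had a far peak for hPSC and PP, 11 of 18 for DE and A5-KO PP, 10 of 17 for hILO and 13 of 18 in WT PP. TNRC6A, the scaffold of miRNA silencing, had 1 far peak in each list, centred between 1985 and 2072 nt. AGO4, an Argonaute protein, had a peak at 2138 to 2437 nt in hPSC and 2163 to 2437 nt in DE, with log2 enrichments of 2.60 and 2.18 and counting errors of 0.20 and 0.15. STAU1, which binds double-stranded 3′UTR RNA, had values at all 4 stages, 2.38 for hPSC, 2.23 for DE, 1.96 for PP and 2.05 for hILO, each from at least 940 input reads. The share of all methylated genes with a far peak was between 41.7% and 53.0% by list, and these lists are too small to set against it.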

How the data were processed

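m6A-seq peak lists of 6 cell populations were analysed, made from 24 libraries in 12 groups of 2. Per the labels and the methods of the study, reads were trimmed (fastp) and mapped to GRCh38 (HISAT2, at most 1 position reported for a read) before the authors ran exomePeak2 for peak calling. Its version and annotation are not given in the sources used here. The authors deposited 1 list per population, with counts of input and IP reads pooled over libraries, a log2 enrichment and a p-value for each peak. The adjusted p was not used. No source used here says if pooling added or averaged the counts. Peak numbers missing from the deposited lists were between 0.136% (hPSC) and 9.51% (WT PP) of the numbering.

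Peaks were clipped to the exons of the longest protein-coding GENCODE 44 isoform of their gene, taking the gene with most clipped bases where several were named, as for 17.1% to 18.3% of far peaks. The far limit was 200 nt. A peak was shared when over 50% of its exonic bases were covered. Shares carry Wilson, differences of shares Newcombe and medians order-statistic 95% intervals, which cover counting error only. Counting errors of log2 enrichment used 0.5 added to IP and input counts, and IP reads are not independent molecules where PCR copied them. No test across conditions was fixed, since the lists hold no value per library.

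Values were used only for the longest run of blocks of 500 peak numbers in which no row shift gave a better match between input counts and genes, without its first and last block. This departs from the design, which used all rows, and was chosen after seeing the data. Code for placement, overlap, motifs, intervals and the row shift was tested on simulated data.

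Named genes were those of 7 fixed lists (107 genes), the 10 genes with most far peaks over the stages, the 5 farthest far peaks with 1 per gene, the 10 peaks of all 4 stages with the highest lowest log2 enrichment, the 3 highest restricted to each stage and the 5 largest differences each way in the knockout. Their minimum of 50 input reads was dropped for the 2 rules that use all peaks, and the others ran on peaks with usable values. The values of 1 listed gene are not reported here. Members and lists were chosen with earlier results of these data known. Of 6 miRNAs, miR-124-3p was not matched in the table used. Python 3.11.15 with numpy 2.4.6, pandas 2.3.3, scipy 1.17.1 and matplotlib 3.10.9 was used.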

Additional observations from a re-analysis of the deposited data

How the results depend on the processing

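No paired analysis was possible because each deposited value is pooled over libraries, so no replicate block or fit without a replicate was run. The median difference of A5-KO PP from WT PP, whose interval held 0, changed sign, as did the medians of far minus CDS peaks within genes of DE, PP and hILO when taken from the plain ratio. The median of far minus stop codon peaks within genes of A5-KO PP, whose interval also held 0, changed sign in the plain ratio too. The strict p and the minimum of input reads were run on placement results only among peaks with usable values, since elsewhere they would have filtered on values of other peaks. Values follow in the order hPSC, DE, PP, hILO, WT PP and A5-KO PP unless named.

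The far share was 23.7%, 26.4%, 21.8%, 25.4%, 28.0% and 22.6% on the isoform with the longest CDS and 19.6%, 21.7%, 17.7%, 21.2%, 23.6% and 18.7% beyond 400 nt. Limiting placements to usable values, alone or with a read minimum or p limit, and running values on all rows as deposited were chosen after seeing the data. The other alternatives were planned. With usable values it was 25.8%, 28.0%, 21.6%, 25.7%, 29.8% and 24.0%, with at least 50 input reads as well 23.1%, 27.6%, 19.8%, 24.98%, 24.8% and 21.1%, and with p below 1e-10 as well 23.0%, 28.6%, 18.7%, 24.6%, 28.4% and 26.8%. The share of genes with a UTR over 4000 nt that had a far peak was 47.1% (PP), 65.6% (hILO), 60.2% (WT PP) and 57.8% (A5-KO PP) with usable values, and 39.7%, 45.2%, 27.5%, 46.6%, 43.2% and 45.9% with p below 1e-10 as well. The coverage ratio of the first far to the last 200 nt was 3.77 (DE), 5.45 (PP), 4.44 (hILO), 5.87 (WT PP) and 5.53 (A5-KO PP), and with p below 1e-10 as well 5.82, 4.44, 8.11, 5.06, 8.59 and 9.15.

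The median log2 enrichment was 1.69 (hPSC), 1.63 (DE) and 1.42 (PP) with at least 50 input reads, and 1.73 (DE), 1.66 (PP) and 1.54 (hILO) over all rows as deposited. The DRACH ratio was 1.26 (hPSC) with usable values and 1.31 (PP) and 1.24 (hILO) with p below 1e-10 as well, and GGAC in its place gave 2.06, 1.99, 1.76, 1.78, 1.85 and 1.80. Far peaks found in the stage before, for DE, PP and hILO, made up 71.4%, 72.6% and 54.5% by any overlap and 48.6%, 45.6% and 36.3% by over 50% of both peaks. With usable values the PP share was 62.3%, with p below 1e-10 as well the shares were 66.9%, 78.2% and 31.4%, and with at least 50 input reads as well those of DE and PP were 73.0% and 75.1%. The median difference of A5-KO PP from WT PP was 0.065 over all rows as deposited and 0.0026 with p below 1e-10, against -0.11 with usable values. The causes were not tested. The other 52 values stayed within their interval or, for 7 coverage ratios, within 1.1 times.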
